A study of Mus musculus with 12 samples.

Results

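Genes of mouse chromosome 8 were followed in embryonic stem (ES) cells that lack Dicer, the nuclease that makes microRNAs, and in derivatives of those cells. A gene was a member when a probe with a mm7 position on chromosome 8 passed the scanner's test of signal over background for 1 RNA in each dye orientation of a pair. Where several probes carried a gene name, the brightest was used. This gave 974 members of 19147 genes tested, beside 17458 genes on the other 18 autosomes. The chromosome was chosen by its median log2 ratios in these same samples, so its median, its stretches and the counts of its genes are given as a description, with no test of their own. Of 1314 gene names that the array places on chromosome 8, 340 were no member: 330 had no detected probe and 10 had a detected probe that lacked a value on an array, or a brighter probe on another chromosome. The members lie between positions 3039768 and 127817645, 498 on the plus and 476 on the minus strand, and 811 carry a RefSeq symbol.

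Per the labels, 7 RNAs were compared on 12 arrays of 2 colours: wild-type ES cells, and, for each of 2 Dicer1-null cultures (27G5 and 27H10, called clones below, although the labels say cultures), the null cells, null cells labelled as overexpressing Dnmt1, and null cells labelled as overexpressing Dnmt3a and Dnmt3b. Each pair of RNAs was hybridised on 2 arrays with the dyes exchanged, so there were 6 ratios, 3 for each clone: the null cells over wild type, and each labelled derivative over its null parent. All cells grew on gelatin with leukemia inhibitory factor and had no other treatment. The allele behind the Dicer1 loss and the vectors and promoters of the derivatives are not given in the sources used here. The wild-type RNA was treated as 1 RNA shared by both clones' ratios, and each null RNA as the reference of both labelled derivatives and the numerator over wild type. The labels do not say that a line was grown or extracted more than 1 time, so p measures the spread between these samples, which may be technical. Values are log2 ratios, and ± is the standard deviation over the 2 clones (n = 2) unless stated.

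An autosome normally gives every cell a pair of copies of its genes, and the summed output of many neighbouring genes moves when copy number, chromatin state or the mix of cells differs between samples. In cultured mouse ES cells, gain of an extra chromosome 8 is a well-known recurrent change of karyotype. The chromosome carries the gene of the ES cell marker Zfp42 (Rex1), the pocket protein gene Rbl2, the epithelial cadherin gene Cdh1, the shelterin gene Terf2, the metallothionein cluster and large clusters of defensin and carboxylesterase genes. Copy number was not measured here, and its part in the values below was not tested.

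The metallothionein cluster holds neighbouring members that moved in different directions, so the 250 bases before the start of each of its genes are printed, from RefSeq on build GRCm38.p6, plus strand, 5′ to 3′. Capitals mark matches to the core of the metal response element, searched as TGCACNC and TGCGCNC on both strands; overlapping matches were counted. Mt4 lies at chr8:94136954-94137203, Mt3 at chr8:94152357-94152606, Mt2 at chr8:94172368-94172617 and Mt1 at chr8:94178839-94179088.
Mt4: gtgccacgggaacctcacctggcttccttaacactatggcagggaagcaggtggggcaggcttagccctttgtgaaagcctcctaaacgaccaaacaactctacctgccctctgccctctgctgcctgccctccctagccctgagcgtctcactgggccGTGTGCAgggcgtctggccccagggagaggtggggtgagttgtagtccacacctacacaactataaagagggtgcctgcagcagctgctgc
Mt3: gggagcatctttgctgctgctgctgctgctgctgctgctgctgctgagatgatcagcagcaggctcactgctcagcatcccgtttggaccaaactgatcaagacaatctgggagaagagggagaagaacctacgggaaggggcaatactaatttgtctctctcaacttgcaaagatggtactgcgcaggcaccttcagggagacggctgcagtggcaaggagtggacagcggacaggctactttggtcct
Mt2: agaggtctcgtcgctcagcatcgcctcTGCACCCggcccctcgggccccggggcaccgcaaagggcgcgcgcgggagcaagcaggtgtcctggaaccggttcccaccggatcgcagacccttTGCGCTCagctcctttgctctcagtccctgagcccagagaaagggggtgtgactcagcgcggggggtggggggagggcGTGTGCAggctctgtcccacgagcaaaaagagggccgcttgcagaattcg
Mt1: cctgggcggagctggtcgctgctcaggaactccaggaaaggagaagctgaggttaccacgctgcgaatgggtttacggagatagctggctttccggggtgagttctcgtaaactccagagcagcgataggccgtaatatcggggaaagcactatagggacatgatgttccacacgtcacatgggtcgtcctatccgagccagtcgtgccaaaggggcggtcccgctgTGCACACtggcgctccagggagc
Mt2 held 3 matches, Mt1 and Mt4 held 1 each and Mt3 held 0. Among 32851 RefSeq promoters of the same length, 21.4% held at least 1 match and 1.26% held 3 or more; among the 677 promoters of members, 29.5% held a match. A match is a run of letters and is no evidence that a factor binds there.

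Median signals per array ran from 112 to 135 (green) and from 234 to 334 (red). Derivatives of 27G5 were hybridised on slide 1 and those of 27H10 on slide 2, while slide 3 held the 4 arrays with wild-type RNA, so clone and slide cannot be told apart in the derivatives. Dicer1 on chromosome 12 was at -4.13 and -4.02 over wild type in the 27G5 and 27H10 clones at 1 probe and at -0.50 and -0.56 at the other. Over Dicer-null, Dnmt1 was above 0 in the Dnmt1-labelled cells, at 0.10 and 0.43, and also in the Dnmt3a,3b-labelled cells, at 0.32 and 0.22. The Dnmt3a,3b label was not matched at most probes: in those cells Dnmt3b was at -1.46 and -0.62 and 2 Dnmt3a probes were at -0.38 and -1.68 and at -0.12 and -1.33, while the third Dnmt3a probe was at 0.19 and 0.21. A probe outside a transgene would not report it. The lines are therefore named by their labels, and no direction below is read as an effect of a methyltransferase. Of 10 ES cell markers, 9 were well above background in both channels of all 12 arrays (Fgf4 was not detected). Over wild type, 7 of these 9 were above 0 and 2 below (median 0.62, range -0.23 to 1.45). Their medians in the derivatives were 0.06 and 0.02. Of 8 trophoblast markers, all detected, 7 were below 0 over wild type (median -1.39, range -2.35 to 0.79) and 8 were above 0 in both derivatives (medians 1.45 and 1.33). Of 10 fibroblast or feeder markers, 8 were detected (Lum and Fap were not); 7 were below 0 over wild type (median -1.01, range -4.09 to 2.02), with medians of -0.03 and 0.02 in the derivatives. Of 6 endoderm markers, all detected, 4 were below 0 over wild type (median -0.70), and the medians in the derivatives were 0.30 and 0.16. Only 6 trophoblast, 4 fibroblast and 3 endoderm markers were well above background in both channels of all 12 arrays. Postn was so on 4 of 4 wild-type arrays and on 0 of 6 arrays of each null RNA. A marker may thus have passed the filter only through an RNA in which it was high. These counts therefore support nothing, and the medians rest partly on dim values. The part of these cell types in the results below was not tested, and in bulk RNA fewer cells of a type and less RNA per cell cannot be told apart.

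Dicer-null over wild type asked which genes differ when Dicer is absent. Chromosome 8 was the lowest of the 19 autosomes in both clones. Its median differed by -0.106 from that of the other autosomes in 27G5 (-0.077 and -0.111 on the single arrays) and -0.082 in 27H10 (-0.068 and -0.102). The other 18 autosomes, each set against the remaining ones, ran from -0.045 (chromosome 15) to 0.160 (chromosome 11) in 27G5 and from -0.031 (chromosome 15) to 0.041 (chromosome 9) in 27H10. The mean over clones was -0.094 ± 0.017, and all 4 arrays were below 0. On the linear scale this is a change of -7.06% in 27G5 and -5.52% in 27H10. The size depended on the probes and the scaling taken: the mean was -0.125 over the 801 members detected in both channels of all 12 arrays, -0.142 with the scanner's own log ratio and -0.037 with no detection filter, all of the same sign. Both clones were read against the same wild-type RNA, so they are not independent on that side.

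The derivatives asked what differs from the Dicer-null parent. In the Dnmt1-labelled cells the median of chromosome 8 was at -0.0030 in 27G5, with 0.0017 and 0.0023 on its arrays, and at 0.043 in 27H10, with 0.069 and 0.012. In the Dnmt3a,3b-labelled cells it was at 0.0073 in 27G5 (0.0078 and -0.014) and at 0.026 in 27H10 (0.049 and 0.023). Averaged over arrays, chromosome 8 was the highest of the 19 autosomes in both 27H10 derivatives, whose other autosomes reached 0.035 and 0.021. On the second array of the Dnmt1-labelled 27H10 cells, however, chromosomes 9, 12 and 19 were higher, at 0.044, 0.035 and 0.029. Chromosome 8 had rank 13 and 16 from the lowest in the 27G5 derivatives. The means were 0.020 ± 0.033 and 0.017 ± 0.013, the first within the spread between clones.

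**Figure D1:**
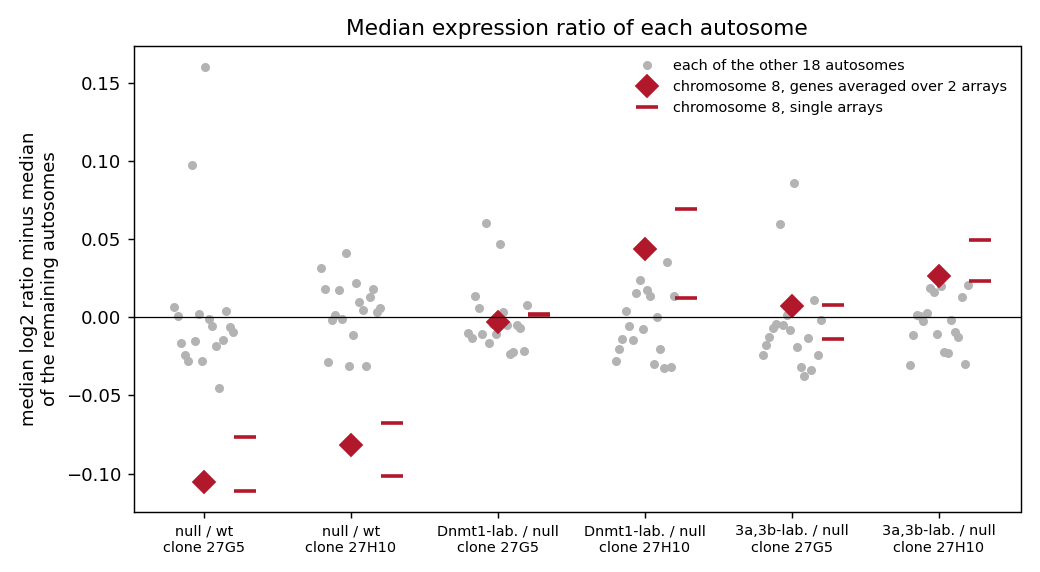
Median log2 ratio of each autosome minus the median of the remaining autosomes (vertical axis) for the 6 ratios (horizontal axis); red diamonds are chromosome 8, red dashes its value on each single array and grey points the other 18 autosomes. Chromosome 8 lies below every other autosome over wild type, at -0.106 in 27G5 and -0.082 in 27H10, and its array average lies above them in the 27H10 derivatives, at 0.043 and 0.026.

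Over wild type, 62.1% of members in 27G5 and 59.9% in 27H10 lay below the median of the other autosomes. The lower and upper quartiles of members, less the median of the other autosomes, were -0.403 and 0.149 in 27G5, against -0.264 and 0.299 for other autosomes. In 27H10 they were -0.387 and 0.182, against -0.285 and 0.276. Both quartiles of chromosome 8 were thus shifted down in each clone. In both clones together, 53.2% of members were below 0, against 40.9% of genes of other autosomes; 34.2% were above 0, against 43.7%.

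Each ratio stands for 1 pair of RNAs, so genes were counted past a log2 ratio of 0.32 in either direction and not by a test. Over wild type, 296 members (30.4%) were lower past that limit in 27G5 and 270 (27.7%) in 27H10, where 21.8% and 22.9% of all genes tested were. Higher past it were 164 (16.8%) and 174 (17.9%), where 24.0% and 22.8% of all genes were. Among Dnmt1-labelled cells, 155 members were higher and 145 lower in 27G5 (15.9% and 14.9%, beside 18.2% and 15.6% of all genes). In 27H10 of that line 254 were higher and 179 lower (26.1% and 18.4%, beside 21.9% and 19.8%). In the Dnmt3a,3b-labelled cells the counts were 182 and 160 in 27G5 (18.7% and 16.4%, beside 18.6% and 17.1%) and 197 and 152 in 27H10 (20.2% and 15.6%, beside 18.0% and 16.9%). These shares restate the choice of the chromosome, and nothing is read from them.

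Along the chromosome, members were cut into 10 consecutive stretches of 97 or 98 genes. Over wild type, 9 of the 10 stretches were below the other autosomes in each clone. The lowest were stretch 10 (chr8:119751942-127817645, mm7), at -0.170 in 27G5 and -0.180 in 27H10, and stretch 5 (chr8:69217897-79520536), at -0.164 and -0.190. Each was below 0 on all 4 arrays. Stretch 10 holds Cdt1, Aprt, Rpl13, Fanca, Rhou and Acta1, and stretch 5 holds Klf2, Mcm5 and Hhip. Stretches 3, 4, 6 and 8 lay between -0.104 and -0.144 in both clones and stretch 1 was at -0.066 and -0.072. Stretch 9 was at -0.089 in 27G5 and -0.049 in 27H10, where its arrays disagreed in sign (0.014 and -0.123). Stretch 7 (chr8:87280632-103337977), which holds Rbl2 and the metallothioneins, was at -0.047 and -0.028. The exception was stretch 2 (chr8:18909798-32003915), at 0.055 in 27G5 and 0.069 in 27H10 and above 0 on all 4 arrays. This stretch holds the defensin clusters, and 42 of its 98 genes were below the other autosomes' median in each clone, against 65 of 97 in 27G5 and 66 of 97 in 27H10 for stretch 10. Among its 78 members detected in both channels of all arrays, the median was 0.106 and 0.078.

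In the Dnmt1-labelled cells the clones differed along the chromosome: 9 of 10 stretches were above the other autosomes in 27H10, with the highest at stretch 7 (0.152), and 5 of 10 in 27G5, with the highest at stretch 3 (0.080). In the Dnmt3a,3b-labelled cells 6 of 10 were above in 27G5, with the highest at stretch 9 (0.092), and 7 of 10 in 27H10, with the highest at stretch 10 (0.088). Stretch 2, the highest over wild type, was the lowest in 3 of these 4 ratios, at -0.084 in the Dnmt1-labelled 27H10 cells and at -0.062 and -0.059 in the Dnmt3a,3b-labelled cells. It was at -0.061 in the Dnmt1-labelled 27G5 cells, next to -0.066 for stretch 6. The null RNA enters these ratios and those over wild type with opposite sign, so an opposite direction is partly built in.

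**Figure D2:**
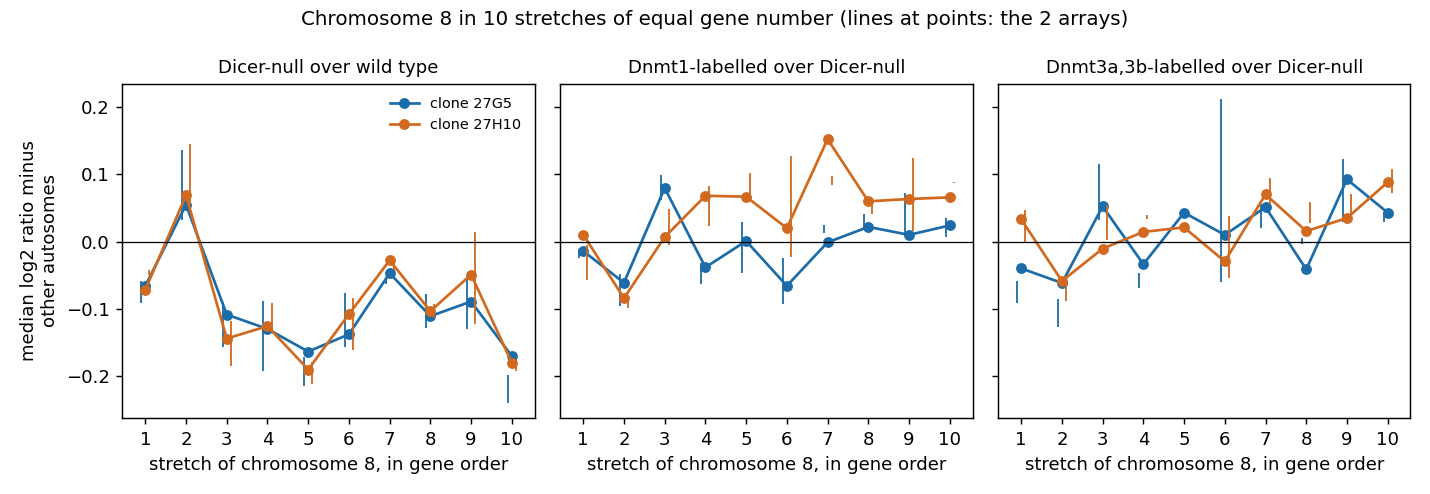
Median log2 ratio of 10 stretches of chromosome 8 in gene order (horizontal axis) minus the other autosomes (vertical axis), one panel per comparison; points are the ratio averaged over 2 arrays, thin vertical lines span the 2 single arrays, blue is clone 27G5 and orange 27H10. Over wild type both clones lie below 0 in every stretch but stretch 2, which is at 0.055 and 0.069.

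Strand and RefSeq naming were not used to choose the chromosome, while signal entered the choice of members. The values below are the chromosome's own ratios cut by class, so they share its choice and are a description. The members' median signal (mean log2 intensity) was 9.87, against 9.60 for other autosomes, and 34.8% were in the brightest tertile of all genes. Over wild type, the 308 members of the dimmest tertile were at -0.023 in 27G5 and -0.017 in 27H10 against other autosomes of the same tertile. The 327 of the middle tertile were at -0.171 and -0.161, and the 339 of the brightest tertile at -0.162 and -0.140. All 4 arrays gave the same order of the dimmest tertile against the other tertiles. The part of signal in the difference was not tested beyond these values. Members on the plus strand were at -0.090 and -0.080 and those on the minus strand at -0.118 and -0.085. The 811 members with a RefSeq symbol were at -0.115 and -0.095, and the 163 named by the array design only were at -0.023 and -0.040. In the Dnmt1-labelled 27H10 cells the brightest tertile was at 0.086 (0.119 and 0.043 on its arrays), while in 27G5 it was at -0.012. A comparison by promoter CpG content was void, because only 560 members (57.5%) had a promoter sequence in the table used.

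**Figure D3:**
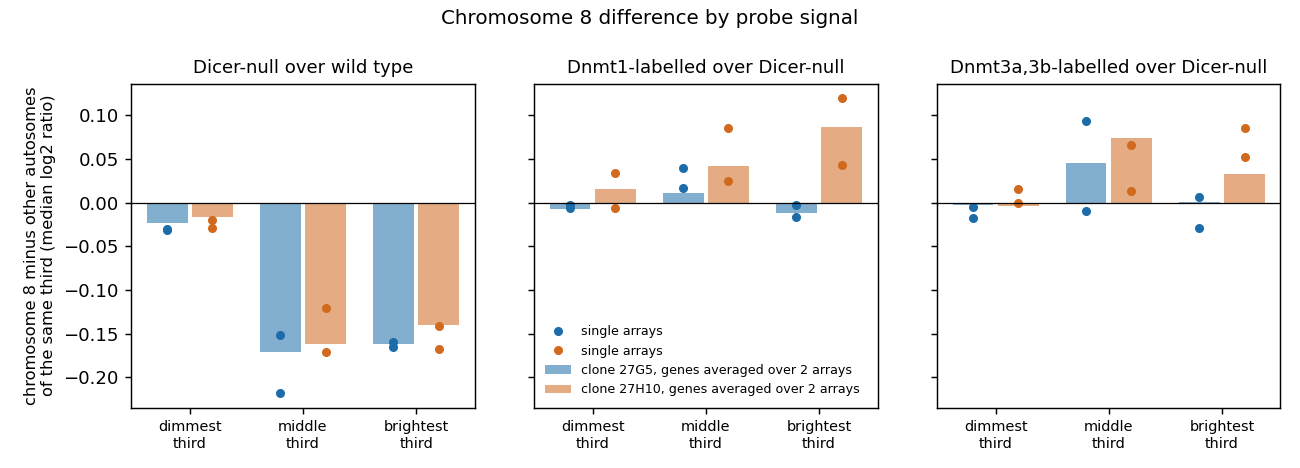
Difference between chromosome 8 and other autosomes (median log2 ratio, vertical axis) within each tertile of all genes by signal (horizontal axis); bars are the genes' ratios averaged over 2 arrays, points the single arrays, blue clone 27G5 and orange 27H10. Over wild type the middle and brightest tertiles lie between -0.140 and -0.171, and the dimmest tertile at -0.023 and -0.017.

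Gene by gene, limma over all 19147 genes called 153 members higher and 270 lower over wild type (15.7% and 27.7% of members, beside 20.4% and 20.3% of all genes tested; Benjamini-Hochberg adjusted p under 0.05). In the Dnmt1-labelled cells 132 were called higher and 100 lower (beside 12.1% and 10.7% of all genes), and in the Dnmt3a,3b-labelled cells 116 and 102 (beside 10.6% and 10.5%). The rule used these contrasts, so nothing is read from the counts. They depended on the clones taken. Over wild type and in the Dnmt3a,3b-labelled cells, fewer were called without either clone. In the Dnmt1-labelled cells fewer were called without 27H10, but more without 27G5. A fit without a clone left 1 ratio in the comparison tested. Its p then took its spread from the other comparisons only. Calls kept or lost without a clone, here and below, thus do not measure the spread between clones. With the RNAs shared between ratios modelled, the counts were 38 and 65, 12 and 8, and 8 and 6. Every call in the Dnmt3a,3b-labelled cells given below was lost without either clone. The shares of all genes called, given in this paragraph for each comparison, apply to every count of calls in the gene lists below, also where they are not repeated. No list count was tested against these shares. In the gene lists that follow, genes outside the naming rule are named only to spell out a count of 5 or fewer and were chosen after their values were seen.

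The 10 most abundant members, the brightest of each stretch and so chosen without regard to their ratio, included Upf3a, Eif4ebp1, LOC633908, Klf2, Prdx2, Mt2, Wwp2, Cox4i1 and Rpl13. Over wild type, 3 of these 10 rose, 1 fell and 6 did not pass, with a median of 0.11. Of all genes tested, 20.4% rose and 20.3% fell. Klf2, a transcription factor of naive ES cells in stretch 5 (chr8:70844133-70844192), was at 1.01 in 27G5 and 1.03 in 27H10. The adjusted p was 0.000423 (limma), but the probe was saturated on all 4 arrays in null RNA and on 2 in wild type, so the size of the difference is uncertain, and a second Klf2 probe was at 0.26. Wwp2, a ubiquitin ligase gene, was at 0.67 ± 0.11 (adjusted p = 0.00219). The peroxiredoxin gene Prdx2 was at -0.31 ± 0.03 (adjusted p = 0.0338; 0.24 without 27G5 and 0.18 without 27H10). Prdx2 was saturated on 2 of 4 arrays in each RNA, and its other probes were at -0.64 and -0.58, so the size is uncertain. The ribosomal gene Rpl13 was at 0.14 ± 0.03 and the cytochrome oxidase gene Cox4i1 at -0.05 ± 0.05, neither of them called. In the derivatives 3 of the 10 rose and 7 did not pass in each comparison: Mt2, Wwp2 (0.36 ± 0.09 and 0.31 ± 0.06) and the translation repressor gene Eif4ebp1, whose mean ratio was 0.34 and 0.28. Eif4ebp1 was saturated on 2 of 4 arrays in each RNA and its arrays split by dye orientation, at -0.03 and 0.70 in 27G5 and -0.09 and 0.78 in 27H10 in the Dnmt1-labelled cells and at -0.08 and 0.64 and -0.29 and 0.84 in the Dnmt3a,3b-labelled cells. Another Eif4ebp1 probe was at -0.03 and 0.09.

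Metallothioneins, small proteins that bind zinc and copper, moved in different directions within a cluster that spans chr8:92727299-92769214 (mm7). Over wild type, Mt1 was at 0.88 in 27G5 and 1.09 in 27H10 and Mt2 at 0.96 and 1.07, while Mt3 was at -0.84 and -0.92 and Mt4 at -0.36 and -0.31. Mt1 and Mt2 were thus above 0 and Mt3 and Mt4 below 0 in each clone, and all 4 members passed (2 higher, 2 lower; adjusted p = 0.00142, 0.000549, 0.000673 and 0.0138 in that order, limma). Over the null parent, Mt1 was at 0.92 and 0.78 in the Dnmt1-labelled cells and Mt2 at 0.90 and 0.78, with Mt3 at 0.48 and 0.39 and Mt4 at -0.22 in each clone. Mt1, Mt2 and Mt3 were called there (adjusted p = 0.00671, 0.00387 and 0.0144). In the Dnmt3a,3b-labelled cells Mt1 was at 1.07 and 0.79, Mt2 at 0.72 and 0.80, and Mt3 at 0.42 and 0.39. Mt1 and Mt2 thus rose over wild type and again over the null parent. In the printed bases Mt4 and Mt1 held 1 match each, and over wild type Mt4 was below 0 and Mt1 above 0. Mt3, with 0 matches there, rose over the null parent in both derivatives. The match counts hold only for the 250 bases before the RefSeq starts used. The part of the element in these ratios was not tested. Mt2 was saturated on all 4 arrays in both derivatives and on 2 of 4 in the parent, and on 2 of 4 arrays in both RNAs over wild type, so the sizes of its differences are uncertain. Its single arrays were far apart in the Dnmt1-labelled cells (0.10 and 1.70 in 27G5, 0.10 and 1.45 in 27H10), by dye orientation. The Mt1, Mt2 and Mt3 calls over wild type and the Mt1 and Mt2 calls in the Dnmt1-labelled cells were kept without either clone and with shared RNAs modelled. The list's median was 0.32 over wild type, against 0.0082 for all genes tested and -0.081 for all members. Called there among all genes were 20.4% higher and 20.3% lower.

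**Figure D4:**
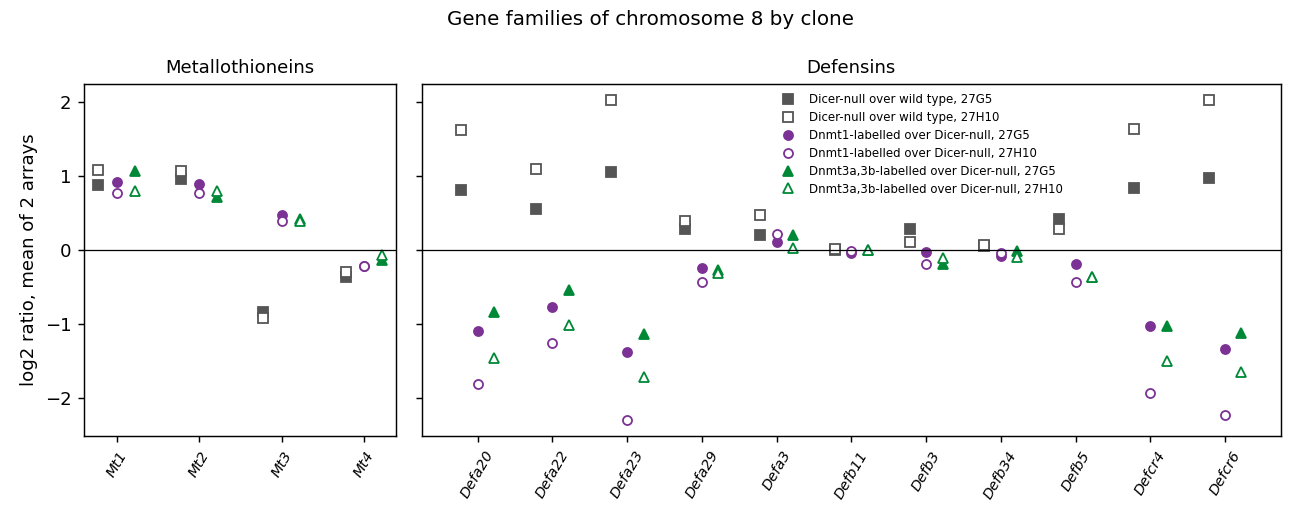
Log2 ratio (vertical axis) of each metallothionein and defensin member (horizontal axis) in the 3 comparisons; squares are null over wild type, circles Dnmt1-labelled and triangles Dnmt3a,3b-labelled over null, filled for clone 27G5 and open for 27H10, each the mean of 2 arrays. Mt1 and Mt2 lie above 0 in all 6 ratios, and Defa20, Defa22, Defa23, Defcr4 and Defcr6 lie above 0 over wild type and below 0 in both derivatives in each clone.

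Defensins, antimicrobial peptides of gut and epithelia, lie in stretch 2. Of 28 defensin gene names on the array, 11 were members, so a gene may have passed the detection filter only through the RNA in which it was high, and the counts support nothing. Over wild type 8 rose, 0 fell and 3 did not pass (median 0.35, beside 0.0082 for all genes), where 20.4% of all genes rose and 20.3% fell. The Dnmt1-labelled cells had 6 that fell and 0 that rose, as had the Dnmt3a,3b-labelled cells (medians -0.34 and -0.37). Defa23 (chr8:20116947-20117565) was at 1.06 in 27G5 and 2.04 in 27H10 over wild type, at -1.38 and -2.30 in the Dnmt1-labelled and at -1.13 and -1.72 in the Dnmt3a,3b-labelled cells. Defcr6 and Defa20 were close to it, at 1.51 ± 0.75 and 1.22 ± 0.58 over wild type, and in each of these genes 27H10 stood farther from 0. Without 27H10, 0 of the 8 calls over wild type and 0 of the 6 in the Dnmt1-labelled cells were kept, and with shared RNAs modelled 0 were kept in any comparison; for Defa23 over wild type the adjusted p was 0.0125, and 0.13 without 27H10. Defa3, the brightest of them, was at 0.34 ± 0.19 at 1 probe and at 1.48 at another.

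Alpha-defensin genes are closely related copies, so some probes may read each other's RNA. The probes are designed 60-base oligonucleotides, and 7 alpha-defensin probes were compared in 21 pairs over the best 30-base window. Of these pairs, 3 differed at 2 to 4 bases of the window and the other 18 at 13 to 18. The 2 closest pairs are shown, 5′ to 3′, with differing bases in capitals, since these are the members whose probes are most alike.
Defcr23: atcGttgagagatctgAtatgctattgtag
Defcr6: atcAttgagagatctgGtatgctattgtag
Defcr4: gaggaccaggctgtgtctAtctcTtttgga
Defcr20: gaggaccaggctgtgtctGtctcCtttgga
Each of these pairs matched at 28 of 30 bases. Defcr23 (the array's name for Defa23) and Defcr6 were at 1.55 and 1.51 over wild type, and Defcr4 and Defcr20 (Defa20) at 1.24 and 1.22. Values of these 4 genes are uncertain, since the share of each gene in the signal cannot be told apart.

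Carboxylesterases, enzymes that split ester drugs and lipids, were dim: 5 of 15 gene names were members. Over wild type 4 rose and 0 fell (beside 20.4% and 20.3% of all genes), and in each derivative 3 fell and 0 rose. Of the 4 calls over wild type, 1 was kept without 27G5, 2 without 27H10, 2 with the clone as a block and 1 (Ces2b, at 1.12 ± 0.07) with shared RNAs modelled. Ces2e was at 0.57 ± 0.13, -0.86 ± 0.03 and -0.95 ± 0.18 in the 3 comparisons (adjusted p = 0.00654, 0.00561 and 0.00492). In the Dnmt1-labelled RNA it was well above background on 1 of 4 arrays, against 4 of 4 in the parent. With the scanner's own log ratio its values were 1.42, -2.70 and -2.51. The filter applies here as for the defensins.

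Among cell-cycle and replication genes, 1 of 11 rose over wild type, 5 fell and 5 did not pass, with a median of -0.24. Beside these, 20.4% of all genes rose and 20.3% fell. Rbl2, the p130 pocket protein which restrains E2F factors, was at 1.83 in 27G5 and 1.87 in 27H10 (chr8:89715790-89715849; 3.61-fold, adjusted p = 0.000214); its other probe was at 1.29. Tfdp1, the dimerisation partner of E2F factors, was at -1.41 and -1.23 (adjusted p = 0.000348), and Orc6, an origin recognition subunit, at -0.71 and -0.66 (adjusted p = 0.00128). These 3 calls were kept without either clone and with shared RNAs modelled. The repressor E2F gene E2f4, the replication gene Gins3 and Cdkn2aip were at -0.66 ± 0.19, -0.66 ± 0.28 and -0.43 ± 0.02, and of the 5 lower calls 2 were kept without 27G5. The replication licensing genes Cdt1 and Mcm5 were at 0.17 ± 0.02 and -0.01 ± 0.16 and did not pass. Over the null parent, Orc6 rose (0.31 ± 0.03) and the replication gene Gins2 fell (-0.41 ± 0.05) in the Dnmt1-labelled cells, with a list median of -0.0078. Of the 11, Rbl2 alone was called in the Dnmt3a,3b-labelled cells, at -0.37 ± 0.08 (limma, adjusted p = 0.0457, and 0.066 with the scanner's log ratio). None of the calls in the derivatives was kept without 27H10.

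ES cell and signalling factors held 5 calls up, 2 down and 6 that did not pass over wild type (13 members, with Insr under 2 array names, median -0.065). The shares of all genes called up and down there were 20.4% and 20.3%. Zfp42, a marker of undifferentiated ES cells, was at 0.45 in 27G5 and 0.29 in 27H10 (chr8:42080746-42080805, adjusted p = 0.0179; 0.20 without 27G5 and 0.085 without 27H10, and 0.070 with the scanner's log ratio). Its arrays split by dye orientation (-0.29 and 1.18 in 27G5, -0.32 and 0.89 in 27H10), and it was saturated on 2 of 4 arrays in each RNA. It did not pass in either derivative, at -0.03 ± 0.02 and 0.10 ± 0.11. The lymphatic growth factor gene Vegfc was at 1.57 and 1.65 (adjusted p = 0.0032; 0.052 with shared RNAs modelled). The interferon regulatory factor genes Irf2 and Irf8 were apart, at 1.65 ± 0.65 and -1.62 ± 0.01. Sall1 and Nfix were higher, at 0.48 ± 0.15 and 0.59 ± 0.09, and the receptor gene Fgfr1 lower, at -0.50 ± 0.11. Of the 7 calls over wild type, 3 were kept without 27G5, 3 without 27H10 and 1 (Irf8) with shared RNAs modelled. Gab1 and Junb did not pass, at -0.08 ± 0.12 and -0.15 ± 0.03. Smad1, which carries BMP signals, was called in both derivatives, at 0.85 ± 0.27 and 0.64 ± 0.12, and Irx3 in the Dnmt3a,3b-labelled cells at 0.29; the medians there were 0.048 and 0.23.

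Cadherins, the calcium-dependent adhesion proteins, had 1 of 7 members called in each comparison, always higher. Called higher among all genes were 20.4%, 12.1% and 10.6% in the 3 comparisons. Cdh1, the E-cadherin of ES cells, was at -0.23 in 27G5 and 0.14 in 27H10 over wild type, so the clones lay on opposite sides of 0, and at 0.24 ± 0.37 and 0.23 ± 0.26 in the derivatives. Cdh3 was called over wild type, at 0.61 ± 0.14 (adjusted p = 0.0188; 0.18 without 27G5 and 0.095 without 27H10). Cdh5, the endothelial VE-cadherin, was well above background on 1 of 4 arrays in null RNA and 0 of 4 in wild type. In the Dnmt1-labelled cells it was well above background on 4 of 4, at 2.11 in 27G5 and 1.47 in 27H10 over the parent (adjusted p = 0.00385), and in the Dnmt3a,3b-labelled cells it was at 1.77 and 1.48. The parent was well above background on 1 of 4 arrays in each of these comparisons, and with the scanner's own log ratio the means were 4.0 and 3.64, so the size rests on how the background is treated. Its other probe was at 0.68 and 0.77. Cdh5 passed the detection filter only through derivative RNA, in which it was high, so its calls support nothing. Cdh13 was at 1.01 ± 0.13 over wild type and -0.93 ± 0.88 and -1.17 ± 0.87 in the derivatives, not called; with the clone as a block all 3 were called.

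Matrix and contractile genes had all 7 members called over wild type, 2 higher and 5 lower (median -0.98, beside 0.0082 for all genes). Among all genes, 20.4% were called higher and 20.3% lower. The type IV collagen genes Col4a1 and Col4a2, whose products form the basement membrane together, have starts 21 bases apart by RefSeq (11312826 and 11312805, GRCm38.p6), and their probes lie on opposite strands. Over wild type Col4a1 was at -1.09 in 27G5 and -1.12 in 27H10, and Col4a2 at -0.98 and -0.97. Over the null parent they were at 0.96 and 1.50 and at 1.21 and 1.33 in the Dnmt1-labelled cells, and in the Dnmt3a,3b-labelled cells at 1.34 and 1.56 and at 1.35 and 1.32. All 6 means were called (adjusted p = 0.0025, 0.00577 and 0.00466 for Col4a1 and 0.000489, 0.00184 and 0.00219 for Col4a2). Acta1, skeletal muscle actin, was the lowest member over wild type, at -3.33 and -3.14, and was at 0.72 ± 0.18 and 0.95 ± 0.28 in the derivatives. Mmp2 and Plat, which cut matrix and activate plasmin, were at -1.14 ± 0.02 and -0.82 ± 0.16 over wild type. The Wnt antagonist gene Sfrp1 was higher, at 1.96 and 2.09 (adjusted p = 0.0021; 0.063 with shared RNAs modelled), and so was Palld, at 0.53 ± 0.07. Of the 7, 4 rose and 1 fell in the Dnmt1-labelled cells, beside 12.1% and 10.7% of all genes. In the Dnmt3a,3b-labelled cells 3 rose and 1 fell, beside 10.6% and 10.5%. Trophoblast and endoderm markers had medians of the same signs as the collagens (-1.39 and -0.70 over wild type, 1.45 and 0.30, and 1.33 and 0.16 in the derivatives). Fibroblast markers had a median of -1.01 over wild type. The limit of the filter given with these markers holds here too, and their part in these ratios was not tested.

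Telomere and chromatin genes had 1 call up and 1 down among 9 over wild type (median -0.029), beside 20.4% and 20.3% of all genes. Brd7, a chromatin remodeller subunit, was at -0.40 ± 0.11 (adjusted p = 0.014; 0.071 without 27G5 and 0.17 without 27H10). Terf2, which caps telomeres, was at 0.28 ± 0.13, -0.32 ± 0.06 and -0.34 ± 0.06 in the 3 comparisons at its brightest probe (adjusted p = 0.0411, 0.0423 and 0.0401). None of the 3 Terf2 calls was kept without either clone or with shared RNAs modelled. Its 3 other probes ran from -0.45 to 0.29, from -0.31 to 0.71 and from -0.29 to 0.70, so the direction of Terf2 depends on the probe. The insulator protein gene Ctcf, the architectural gene Hmgb2 and Sap30 did not pass, at -0.13 ± 0.04, 0.19 ± 0.06 and -0.18 ± 0.11.

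Beside each list of this paragraph, 20.4% of all genes tested rose and 20.3% fell over wild type. Of 8 translation and protein turnover genes, 1 rose and 2 fell over wild type (median -0.084): the alanyl-tRNA synthetase gene Aars at 0.45 ± 0.03, the proteasome gene Psmd7 at -0.50 ± 0.03 and Farsa at -0.49 ± 0.30. Of these 3 calls, 0 were kept without 27G5, 1 without 27H10 and 0 with shared RNAs modelled. Aars was at 0.40 ± 0.12 and 0.42 ± 0.01 in the derivatives, and the lowest of its other probes were at -0.02, -0.08 and -0.03. The immunoproteasome gene Psmb10 was called lower in the Dnmt1-labelled cells, at -0.63 ± 0.01. Of 9 mitochondrial and redox genes, 1 rose and 3 fell over wild type (median -0.14). The adenine nucleotide carrier gene Slc25a4 was at -0.68 ± 0.17 and Mrpl34 at -1.08 ± 0.02, and the quinone reductase gene Nqo1 was at 0.57 ± 0.20. Of these 4 calls, 2 were kept without 27G5, 2 without 27H10 and 1 (Mrpl34) with shared RNAs modelled. Over wild type Slc25a4 was saturated on 1 of 4 arrays in null RNA and on 2 of 4 in wild type. Its other probe was at -1.21 there, so the size is uncertain. Nqo1 was also at 1.08 and 0.97 in the derivatives. Ndufa13 did not pass, at 0.15 ± 0.07. Of 8 DNA repair and nucleotide salvage members (Polb stands under 2 array names), 1 rose and 2 fell over wild type (median -0.13): the deubiquitinase gene Cyld at 1.20 ± 0.02, the purine salvage gene Aprt at -0.66 ± 0.07 and the polymerase gene Polb at -0.31 ± 0.08, with another Polb probe at 0.11. Of these 3 calls, 1 was kept without 27G5, 2 without 27H10 and 1 (Cyld) with shared RNAs modelled. Fanca and Dnase2a did not pass, at 0.31 ± 0.08 and -0.08 ± 0.06.

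The members farthest from 0 over wild type, with the same sign on all 4 arrays, were chosen for these values, which are therefore a description. Hhip, which binds Hedgehog ligands, was highest at 3.17 in 27G5 and 2.40 in 27H10 (chr8:78511903-78511962), followed by the tryptophan-degrading dioxygenase gene Ido2 at 2.68 ± 0.32, the receptor gene Adgrg3 at 2.50 ± 0.27, the chemokine gene Ccl25 at 2.27 ± 0.24 and Snx20 at 2.20 ± 0.33. Below Acta1 stood Dusp4, a phosphatase that turns off ERK kinases, at -2.63 ± 0.08, Mfhas1 at -2.47 ± 0.08, the small GTPase gene Rhou at -2.25 ± 0.23 and Fam149a at -2.19 ± 0.35. Both clones lay on the same side in all 10. In the derivatives the 5 lowest all had positive means, from 0.65 for Dusp4 to 1.54 for Rhou in the Dnmt1-labelled cells. The null RNA enters these ratios with opposite sign, so this direction is partly built in. Dusp4 was not called in the Dnmt1-labelled cells (limma, adjusted p = 0.064), and its other probe was at 0.04 and 0.22 in the derivatives. Of the 5 highest, Hhip stayed above 0, at 0.92 ± 0.42 and 1.19 ± 0.23, while Snx20 and Ccl25 were below 0, at -1.48 ± 1.13 and -0.80 ± 0.29 in the Dnmt1-labelled cells. Other probes of Ccl25 ran from -0.09 to 1.97 over wild type, and those of Ido2, Adgrg3 and Hhip were at 0.20, 0.62 and 1.67. The second Hhip probe was at 0.04 and 0.19 in the derivatives.

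**Figure D5:**
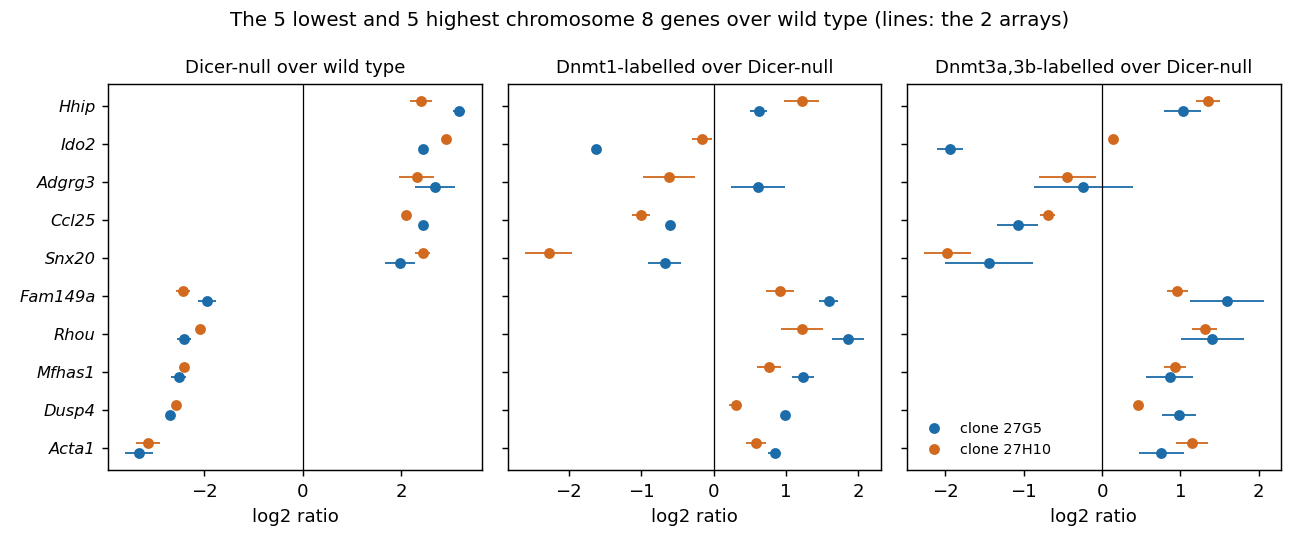
Log2 ratio (horizontal axes) of the 5 highest and 5 lowest members over wild type (vertical axis) in the 3 comparisons; points are clone means (blue 27G5, orange 27H10) and lines span the 2 arrays of a clone. Acta1 is lowest at -3.23 and Hhip highest at 2.78, and the 5 lowest members lie above 0 in both derivatives.

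In the derivatives the members farthest from 0 were named by the same rule. Above 0 stood Cdh5, the palmitoyltransferase gene Zdhhc2 at 1.68 ± 0.02 and 1.50 ± 0.22, the adenylate cyclase gene Adcy7 at 1.66 ± 0.52 and 1.68 ± 0.15, and the adhesion receptor gene Adgra2 at 1.46 ± 0.36 and 1.40 ± 0.17. The fifth was Rhou in the Dnmt1-labelled and Col4a1 in the Dnmt3a,3b-labelled cells. The limit of the filter given above for Cdh5 holds here too. Over wild type Zdhhc2, Adcy7 and Adgra2 were at -1.17 ± 0.25, -1.98 ± 0.17 and -1.34 ± 0.14. Below 0 were alpha-defensins and Snx20 in both lines, with the neuregulin gene Nrg1 (-1.30 ± 0.87) and Tppp3 (-1.26 ± 0.24) in the Dnmt1-labelled and Cdh13 and Pgbd5 (-1.11 ± 0.04) in the Dnmt3a,3b-labelled cells. Pgbd5, a domesticated transposase gene, was at 1.89 ± 0.17 over wild type. Since the null RNA is shared, these values are set side by side and no overlap is drawn from them.

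Added along shared RNAs, the ratios place every derivative against wild type. The chromosome 8 median was at -0.094 in the Dnmt1-labelled and -0.073 in the Dnmt3a,3b-labelled 27G5 cells, and at -0.035 and -0.046 in the 27H10 cells. The share of members below the other autosomes was 59.7%, 58.5%, 53.3% and 54.6% in that order, so all 4 derivatives stood below wild type and those of 27G5 farther. The parents compared through wild type gave -0.031 for 27G5 minus 27H10. These values share arrays with those above and have no error of their own.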

How the data were processed

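Total RNA was extracted with a spin-column kit, amplified and labelled with Cy3 or Cy5, per the labels' protocols. Per the file headers, Agilent Feature Extraction (9.5.1.1 on 8 arrays, 9.1.3.1 on 4) measured each spot's intensity on a linear scale, with no normalization between arrays, and the deposited LogRatio is the log10 of red over green after the scanner's background and dye correction. The authors' deposited value table holds log2 ratios; compared with the scanner's ratios it had the same scale and direction (r from 0.968 to 1.00), and it was not centred (array medians from -0.14 to 0.17). Positions are those of build mm7, per the file headers. 0 columns of per-sample values were left unused.

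Mean intensities were background-corrected by normexp (offset 50) and loess-normalised within each array (R 4.3.3, limma 3.58.1). Control spots were left out, and spots of 1 probe were averaged. Ratios were turned 1 way, and the 2 arrays of a pair, taken to hold the same RNAs, were averaged. A limma model with 3 comparisons and moderated variances was fitted to the 6 ratios over all genes, which left 3 residual degrees of freedom. Calls are at a Benjamini-Hochberg adjusted p under 0.05. The fit was tested on simulated data. The chromosome's median was set against the median of the other autosomes.

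Genes named are the brightest of each stretch, the 5 highest and 5 lowest members of each comparison with the same sign on all 4 arrays, up to 4 of the brightest of each gene list, and Zfp42, Rbl2, Cdh1 and Terf2. The members, gene lists and tests were chosen with earlier results of these data known. Alternatives were the scanner's and the authors' ratios, no background correction, other detection and probe rules, means over genes, other numbers of stretches, leaving out an array or clone, the clone as a block, and a model of the shared RNAs. The numbers 1 and 2 in the labels go with the 2 dye orientations of a pair. The RNAs of a pair were treated as the same on both arrays, so the clone served as the block. The small number of arrays limits the precision. Some members that enter the counts are not reported here by name.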

Additional observations from a re-analysis of the deposited data

Results flagged for a closer look

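In the values below the clones lay on opposite sides of 0, with both arrays of 27G5 on 1 side and both of 27H10 on the other. Each is given as 27G5 minus 27H10 on the log2 scale, and none of these differences was tested. Stretch 4 differed by -0.106 in the Dnmt1-labelled and by -0.048 in the Dnmt3a,3b-labelled cells. Upf3a, a factor of nonsense-mediated decay, differed by 0.29 in the Dnmt1-labelled and by -0.37 in the Dnmt3a,3b-labelled cells. Ido2 differed by -2.08 in the Dnmt3a,3b-labelled cells, Adgrg3 by 1.23 in the Dnmt1-labelled cells, and Cdh1 by -0.37 over wild type. Another Ido2 probe had a mean of 0.03 over both clones in the Dnmt3a,3b-labelled cells. In the derivatives, clone and slide cannot be told apart.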

How the results depend on the processing

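The shift of chromosome 8 over wild type (-0.094) kept its sign under every alternative run for it. It was -0.142 with the scanner's log ratio, -0.141 with the authors' table, -0.125 over genes detected on all arrays, -0.037 with no detection filter and -0.112 as a mean over genes. In the derivatives no alternative moved the shift by more than 1 SD over clones from its value, but without 27H10 it was -0.0030 in the Dnmt1-labelled cells and without 27G5 0.043. Without each clone in turn, calls over wild type numbered 54 to 69 higher and 104 to 106 lower, in the Dnmt1-labelled cells 67 to 151 and 36 to 108, and in the Dnmt3a,3b-labelled cells 0 and 0. With shared RNAs modelled they were 38 and 65, 12 and 8, and 8 and 6. With the replicate block (the clone), they were 151 and 258, 132 and 88, and 104 and 87. Of 105 called results on named genes, 70 were lost with shared RNAs modelled, 53 without 27G5, 62 without 27H10, 9 with the replicate block and 14 with either the scanner's or the authors' ratios. The alternatives on named genes other than those ratios and other probes, and the authors' table for the counts of calls, were chosen after seeing the data. Other probes reversed these: Ccl25 (-0.087, 0.24 and 0.24 in the 3 comparisons), Polb (0.11 over wild type), Eif4ebp1 (-0.031, Dnmt1-labelled), Palld (0.11 and 0.13 in the derivatives), Terf2 (-0.45 and -0.38 over wild type, 0.70 and 0.71 in the Dnmt1-labelled, 0.46 and 0.70 in the Dnmt3a,3b-labelled cells) and Aars (-0.019, -0.082 and -0.034). The cause was not tested.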
